A study of Mus musculus with 4 samples.

Results

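The 10 genes described here belong to the AP-1 and immediate early response and were followed in the liver RNA of mice with and without a hepatocyte deletion of Ddi2. They are Fos, Fosb and Fosl2, Jun, Junb and Jund, and Egr1, Ier2, Ier3 and Atf3, 10 of the 48709 gene identifiers that were counted. The list was drawn up because Fos and Jun were higher in DDI2-KO livers in these same libraries, with the question whether the whole AP-1 and early response was higher too. The genotype difference of Fos and Jun is therefore a description, and it is given for every member without a p-value. The study sequenced mRNA from whole liver of untreated adult C57BL/6 mice, 2 WT libraries and 2 DDI2-KO libraries. WT livers were from littermates that carry floxed Ddi2 alleles (DDI2 flox/flox) without Cre recombinase. DDI2-KO livers, whose genotype the labels give as DDI2-/-, carry the same floxed alleles with Cre driven by the albumin promoter. Albumin-driven Cre acts mainly in hepatocytes, so cells such as endothelial and Kupffer cells of a DDI2-KO liver should keep Ddi2. Ddi2 was not measured by cell type here. The sex of the mice is not used here.

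AP-1 is a dimer of basic leucine zipper proteins, in which a Jun protein pairs with another Jun protein, a Fos protein or an ATF protein and binds a short element in DNA. Immediate early genes are transcribed within minutes of a growth factor, cytokine or stress signal, without new protein synthesis, because the factors that switch them on are already present in the cell. In liver the response is best known from regeneration after partial hepatectomy and from handling and injury, and most of its transcripts are short-lived.

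The libraries held 22501208 to 34109018 reads on genes, so that 3 counts, taken as the smallest detectable level, stood for 0.0892 to 0.131 CPM (counts scaled to library size by edgeR's TMM method). Reads of the targeted gene Ddi2 numbered 4749 and 3812 in WT livers and 4068 and 3777 in livers labelled DDI2-KO. Scaled to library size this was 141 and 123 CPM against 157 and 164 CPM, with no lower level in the livers labelled DDI2-KO. The floxed exon was not counted separately, and the whole-gene count therefore does not check its loss. DDI2-KO stands below for the libraries labelled so. Reads of mitochondrially encoded genes made up 9.91 to 10.5% of gene reads in WT against 5.27 to 6.34% in DDI2-KO. Reads that met no annotated gene came to 4.70 to 5.11% of that total in WT and 2.53 to 3.65% in DDI2-KO. The hepatocyte marker genes were abundant in every library. The part of these library differences in the results below was not tested.

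Fos and Jun rose, and the rest of the early response among the members was not called. Fos was 6.30-fold and Jun 2.68-fold higher in DDI2-KO, and the other 7 members that could be tested did not pass an adjusted p of 0.05 in edgeR's quasi-likelihood test. Fosb lay below the filter on low counts and was not tested. Among all 13699 tested genes, 1.33% were called higher in DDI2-KO and 2.53% were called in either direction. The 2 called members are those the list was built on, so nothing is read from their share. Of the other 7, 1 (Atf3) had an unadjusted p under 0.05, as did 23.5% of all tested genes. DESeq2 also called Atf3, in a test that called 3.86% of genes higher, and limma-voom called none of the 7, against 0.526% of genes. Both DDI2-KO livers lay above both WT livers for Fos and Jun, which chose the list, and for 2 of the other 7 tested members, Egr1 and Atf3. Over all tested genes, 28.0% were placed in this way. The median log2 fold change of the 7 tested members other than Fos and Jun was 0.46, beside -0.01 over all tested genes. With Fos and Jun, which chose the list, it was 0.47 over the 9 tested members. In whole liver, more cells that express a gene and more of its RNA per cell cannot be told apart.

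**Figure D1:**
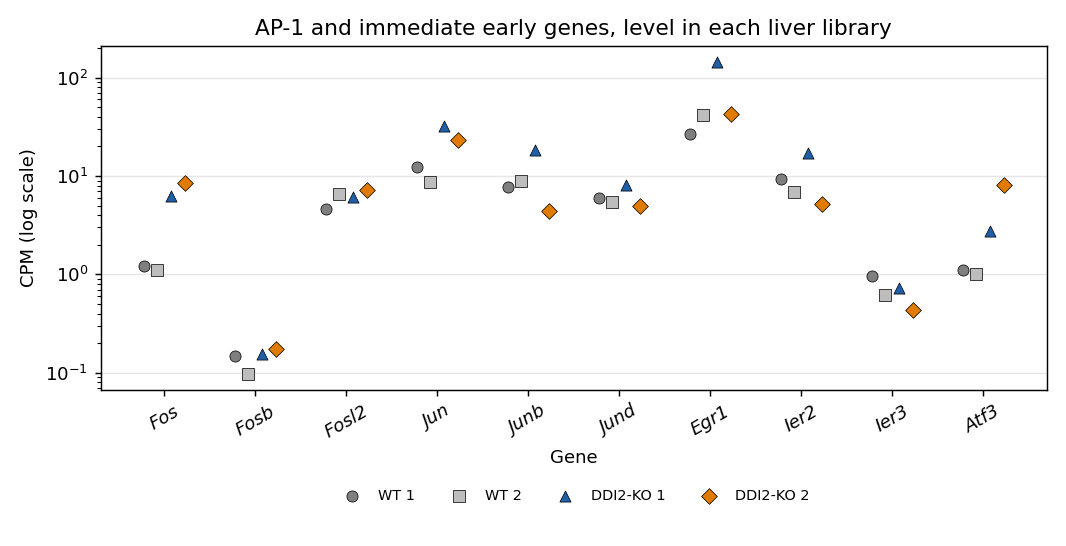
CPM of each of the 10 genes (log axis) in each of the 4 liver libraries, with circles and squares for WT and triangles and diamonds for DDI2-KO. Fos and Jun lie higher in both DDI2-KO livers, while Junb and Ier2 are highest in the first DDI2-KO liver and lowest in the second.

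Fos encodes the c-Fos protein, the classical partner of c-Jun in AP-1. The gene (ENSMUSG00000021250, GRCm38 chr12:85473890-85477273, plus strand) had 41 and 34 reads in the WT livers against 163 and 193 in the DDI2-KO livers. Scaled to library size this was 1.16 ± 0.0842 CPM (SD, n = 2) in WT against 7.35 ± 1.49 CPM (SD, n = 2) in DDI2-KO. Every DDI2-KO value was several times every WT value, and the spread within each genotype was small beside that gap. The log2 fold change was 2.66, with a standard error (SE) of 0.28, and was the largest among the members. It lay between 2.44 and 2.85 when a library was dropped.

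Fosb (ENSMUSG00000003545, chr7:19302696-19310051, minus strand) encodes FosB, a second early Fos protein. It had 5 and 3 reads in WT against 4 and 4 in DDI2-KO, at or just over the smallest detectable level in all 4 libraries. The groups had about the same few reads, and a small difference was not detectable at this depth.

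Fosl2 (ENSMUSG00000029135, chr5:32135801-32157842, plus strand) encodes Fra-2, a Fos protein that lacks the strong activation domain of c-Fos and appears later in the response. It had 4.64 and 6.60 CPM in WT and 6.10 and 7.14 CPM in DDI2-KO. The groups overlapped, and the log2 fold change was 0.24 (SE 0.25). Within the Fos family the difference between genotypes was thus called for Fos alone, without a test between the family members.

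Jun encodes c-Jun, the AP-1 subunit that amino-terminal kinases phosphorylate and that also acts on its own promoter. The gene (ENSMUSG00000052684, chr4:95049034-95052222, minus strand) had 411 and 266 reads in WT against 844 and 533 in DDI2-KO. The scaled levels were 10.4 ± 2.56 CPM (SD, n = 2) in WT against 27.9 ± 6.66 CPM (SD, n = 2) in DDI2-KO. Both DDI2-KO livers lay above both WT livers, although the livers of each genotype also differed among themselves. The log2 fold change was 1.42 (SE 0.24). The call depended on the libraries used. It was lost without the second WT liver (log2 fold change 1.19) and without the first DDI2-KO liver (1.16), and kept without the first WT liver (1.70) and without the second DDI2-KO liver (1.65).

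Junb (ENSMUSG00000052837, chr8:84974484-84978718, minus strand) encodes JunB, a weaker activator than c-Jun that can hold AP-1 targets down. Its reads numbered 259 and 278 in WT and 480 and 102 in DDI2-KO, or 7.70, 9.0, 18.5 and 4.44 CPM. The first DDI2-KO liver was the highest of the 4 and the second was the lowest, so the WT livers lay between them. The log2 fold change of 0.47 had an SE of 0.70. Its sign turned with the DDI2-KO liver left out, from 1.16 without the second to -0.91 without the first.

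Jund (ENSMUSG00000071076, chr8:70698949-70700616, plus strand) encodes JunD, which is made in resting cells and changes little on stimulation. It had 5.92 and 5.47 CPM in WT and 8.19 and 4.96 CPM in DDI2-KO. The groups overlapped, the log2 fold change was 0.21 (SE 0.27), and it was -0.20 without the first DDI2-KO liver.

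The exons of 3 Jun genes overlap a gene on the opposite strand, and the strand setting of the counting is not given in the sources used here. Jun shares 232 exon bases with Junos, which had 4 to 10 reads in a library. Jund shares 877 with Gm11175, which had 0 or 1 read. Junb shares 173 with Prdx2, which had 2010 and 2188 reads in WT against 2648 and 1815 in DDI2-KO. Apart from these opposite-strand overlaps, no member shared a stretch of 50 bases with the transcripts annotated on the same strand for another gene.

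The promoters of Fos and Jun, the 2 members that were called, and of Dusp1 and Btg2, a pair of early feedback genes described below, are shown because they carry versions of the element that ATF, CREB and Jun proteins bind. Dusp1 and Btg2 were picked for their match after all windows had been searched. Each line holds the 250 bases before the RefSeq start (GRCm38.p6), on the strand of the gene, 5′ to 3′. Capitals mark TGACG, the first part of the cyclic AMP response element, or the 8-letter forms TGACGTCA and TGACATCA.
Fos (chr12:85473640-85473889, plus strand): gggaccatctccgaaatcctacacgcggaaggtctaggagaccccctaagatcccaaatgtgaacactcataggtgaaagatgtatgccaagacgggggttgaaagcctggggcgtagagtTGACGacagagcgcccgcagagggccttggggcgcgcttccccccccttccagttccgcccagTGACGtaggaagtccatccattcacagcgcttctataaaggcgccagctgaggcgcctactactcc
Jun (chr4:95052223-95052472, minus strand): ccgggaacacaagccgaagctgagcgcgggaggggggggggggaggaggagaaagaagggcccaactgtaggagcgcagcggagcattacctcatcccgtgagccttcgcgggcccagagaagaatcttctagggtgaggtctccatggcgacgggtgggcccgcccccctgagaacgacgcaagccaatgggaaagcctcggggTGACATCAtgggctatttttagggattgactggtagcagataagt
Dusp1 (chr17:26508473-26508722, minus strand): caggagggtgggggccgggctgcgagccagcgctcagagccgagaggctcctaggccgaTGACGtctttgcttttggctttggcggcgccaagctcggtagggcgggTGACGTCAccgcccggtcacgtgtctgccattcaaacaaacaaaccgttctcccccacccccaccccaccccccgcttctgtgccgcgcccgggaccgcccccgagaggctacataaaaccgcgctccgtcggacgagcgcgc
Btg2 (chr1:134079156-134079405, minus strand): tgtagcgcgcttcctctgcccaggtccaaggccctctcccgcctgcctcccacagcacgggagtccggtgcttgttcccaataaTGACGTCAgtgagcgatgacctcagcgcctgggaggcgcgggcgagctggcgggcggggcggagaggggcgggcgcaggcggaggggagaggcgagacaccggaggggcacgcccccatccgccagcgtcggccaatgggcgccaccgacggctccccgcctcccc

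Fos held 2 copies of TGACG, the nearer of them 66 bases before the start, and Jun held TGACATCA 45 bases before the start. Dusp1 and Btg2 each held the whole TGACGTCA, 143 and 166 bases before the start. TGACG is part of TGACGTCA, and both strands were searched. Of all 32851 windows of this length, 17.8% held TGACG, 2.93% held TGACATCA and 1.55% held TGACGTCA. Windows of 8 of the 10 members were searched, and none was searched for Egr1 and Ier2. TGACG was also present in the windows of Fosb, Junb and Atf3, which were not called. Of the other called early genes, Ccn1 held TGACG in its window, and Gadd45b and Nab2 held neither TGACG nor TGACGTCA. No window was found for Klf10, which was also called. The AP-1 element TGANTCA (6.75% of all windows) and the CArG box of serum response factor (1.47%) had no match in the 8 windows. These are matches of letters, and no match says only that the letters are not in this window.

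Egr1 encodes a zinc finger factor induced through serum response factor, and it was the most abundant member. Its reads numbered 907 and 1278 in WT and 3771 and 992 in DDI2-KO, or 27.0, 41.4, 146 and 43.2 CPM. The first DDI2-KO liver stood far above the rest, while the second was within 2 CPM of the higher WT liver. The log2 fold change was 1.47 with an SE of 0.70. It was 2.10 without the second DDI2-KO liver and 0.34 without the first.

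Ier2 (ENSMUSG00000053560, chr8:84661331-84662852, minus strand), which encodes a small nuclear protein of the early response, had 9.37 and 6.86 CPM in WT and 17.1 and 5.18 CPM in DDI2-KO. As for Junb, the first DDI2-KO liver was the highest and the second the lowest. The log2 fold change of 0.46 (SE 0.58) became 1.08 without the second DDI2-KO liver and -0.64 without the first.

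Ier3 (ENSMUSG00000003541, chr17:35821684-35822923, plus strand), an early gene whose product affects survival signalling, had 32 and 19 reads in WT against 19 and 10 in DDI2-KO. It was the only tested member with a log2 fold change below 0, at -0.41 (SE 0.48), and its groups overlapped.

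Atf3 encodes a stress-induced ATF protein that pairs with Jun proteins and often represses. The gene (ENSMUSG00000026628, chr1:191170296-191218039, minus strand) had 37 and 31 reads in WT against 72 and 185 in DDI2-KO, or 1.05 ± 0.0687 CPM (SD, n = 2) against 5.42 ± 3.73 CPM (SD, n = 2). Both DDI2-KO livers lay above both WT livers, the second more so than the first. Its log2 fold change, 2.35 (SE 0.51), was the second largest among the members but did not pass the threshold. Without the first DDI2-KO liver Atf3 was called (log2 fold change 2.93), and without the second it was 1.41 and not called.

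The DDI2-KO livers thus held different early genes at a high level. On the log2 scale and taken as the second liver less the first, the difference was -2.05 for Junb (18.5 and 4.44 CPM), -1.75 for Egr1 and -1.71 for Ier2. Atf3 went the other way, at 1.51. Fos and Jun differed far less, by 0.41 and -0.49. The median size of the difference between the DDI2-KO livers was 0.72 over the tested members and 0.27 over all tested genes, on the log2 CPM scale. Between the WT livers it was 0.45 over the members and 0.19 over all tested genes, and the largest differences, second liver less first, were those of Egr1 at 0.62 and Ier3 at -0.58.

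**Figure D2:**
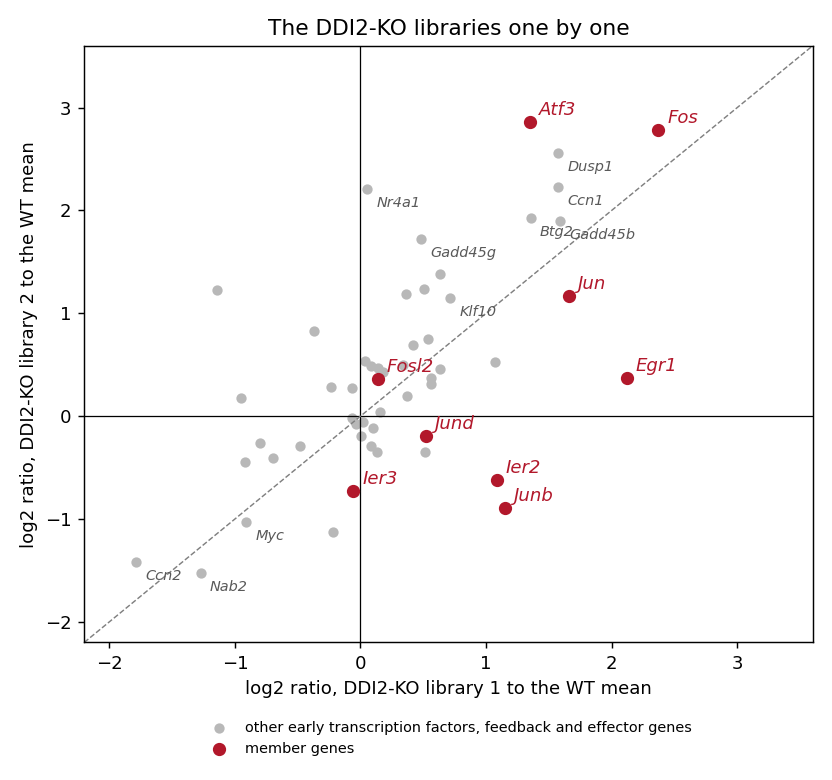
The log2 ratio of each gene to the WT mean in the first DDI2-KO liver (horizontal) and in the second (vertical), with the 9 tested members in red, the other early transcription factors and the feedback and effector genes in grey, and a dashed line where both livers are equal. Fos, Jun and Atf3 lie well above 0 in both livers, whereas Junb and Ier2 are above 0 in the first liver and below 0 in the second.

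Base composition moved with this difference. Over 13675 genes, which do not count as replicates, the difference between the DDI2-KO livers had a Spearman correlation of -0.48 with GC content, so that GC-rich genes were lower in the second. The tested members are GC-rich, with 51.9 to 67.1% GC (median 55.5%) beside a median of 49.4% over all tested genes. After offsets for GC content and transcript length, the same differences were -1.50 for Junb, -1.47 for Egr1, -1.23 for Ier2 and 1.64 for Atf3. Others shrank, that of Jund, the most GC-rich member, from -0.72 to -0.0013 and that of Jun from -0.49 to -0.25. The median size over the tested members went from 0.72 to 0.53, and over all tested genes from 0.27 to 0.21. With these offsets the called members were again Fos and Jun, in a fit that called 2.99% of genes higher.

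Which members were called followed the DDI2-KO liver that was kept. Of the 7 tested members other than Fos and Jun, 3 were called higher without the second DDI2-KO liver (Junb, Egr1 and Ier2), in a fit that called 2.05% of all tested genes higher. Without the first, Atf3 was called, in a fit that called 1.31% higher. Without the first WT liver (0.539% called higher) or the second (0.547%), none of the 7 was called. Fos and Jun chose the list and their calls in these fits are not counted here.

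**Figure D3:**
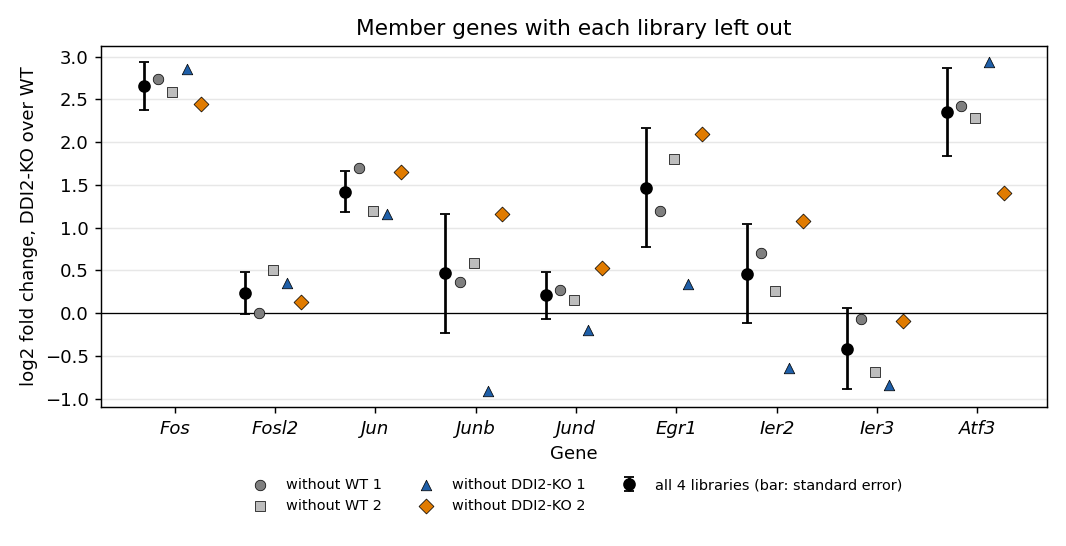
Log2 fold change (DDI2-KO over WT) of the 9 tested members with all 4 libraries (black, bar for the standard error) and with each library left out. Fos stays between 2.44 and 2.85, while Junb runs from -0.91 to 1.16 and Egr1 from 0.34 to 2.10, depending on the DDI2-KO liver left out.

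Levels of different genes were compared as CPM per kilobase of annotated exon. In WT the order was Egr1 (7.62), Ier2 (5.33), Junb (3.63), Jund (3.41), Jun (3.27), Ier3 (0.693), Fosl2 (0.581), Fos (0.493), Atf3 (0.488) and Fosb (0.0197). The libraries of neighbours in this order overlapped, except that Ier2 stood clear above Junb, Jun above Ier3 and Atf3 above Fosb. In DDI2-KO, Egr1 was again first (21.1 ± 16.2, SD, n = 2), Jun was second (8.75 ± 2.09) and Fos moved above Fosl2 and Ier3, to 3.12 ± 0.632. Neighbours from Egr1 down to Atf3 overlapped in DDI2-KO, whereas Atf3 (2.51) stood clear above Fosl2 (0.684) and Ier3 (0.517) clear above Fosb (0.0263).

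The wider response was described with 5 lists of genes grouped by function, 100 genes of which 88 could be tested. Of these, 5 rose and 1 fell, or 6.82% called. The share is given beside 2.53% of all tested genes, and these lists were chosen with results of these libraries known. The 5 that rose are Klf10, Dusp1, Btg2, Gadd45b and Ccn1, and the 1 that fell is Nab2.

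The genes whose proteins pair with Fos or Jun proteins gave no call. Of 12 such partners (Fosl1, Jdp2, the Batf, Atf and Maf genes), 11 were tested and 0 passed in edgeR. None had an unadjusted p under 0.05, and DESeq2 and limma-voom called 0. All 11 log2 fold changes were below 0 (median -0.27), also with library totals, RLE factors and upper-quartile factors, but 6 of 11 were above 0 without the second DDI2-KO liver. Batf2, an interferon-linked partner of Jun proteins, was lowest at -0.69 (SE 0.40, adjusted p = 0.338). Jdp2, a repressor that pairs with c-Jun, had -0.36 (SE 0.44, adjusted p = 0.672).

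Among 17 other early transcription regulators 11 were tested, 1 rose and 1 fell. Of all tested genes, 1.33% were called higher and 1.20% lower. Klf10, a TGF-beta inducible repressor, had 20.3 and 22.1 CPM in WT and 34.9 and 47.1 CPM in DDI2-KO. Its log2 fold change was 0.95 (SE 0.19, adjusted p = 0.0467 by edgeR). Both DDI2-KO livers were higher, but the call was lost without either WT liver (adjusted p = 0.206 without the first and 0.125 without the second). Over the alternatives with all 4 libraries, its adjusted p ran from 0.000261 to 0.0639.

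Nab2, a corepressor that binds Egr1 and is itself induced by it, had 20.7 and 20.0 CPM in WT and 8.38 and 7.01 CPM in DDI2-KO. It fell, with a log2 fold change of -1.40 (SE 0.19, adjusted p = 0.0189), and was called with each library left out. Its level was low in both DDI2-KO livers, including the first, where Egr1 was highest.

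The largest differences in this list that did not pass were those of Nr4a1 and Myc. Nr4a1, an early orphan nuclear receptor, had 1.07 and 1.49 CPM in WT and 1.31 and 6.09 CPM in DDI2-KO (log2 fold change 1.52, SE 0.71, adjusted p = 0.266). As for Atf3, the second DDI2-KO liver was the high one, and without the first Nr4a1 was called (adjusted p = 0.0282), while its adjusted p was 0.958 without the second. Myc, the growth regulator, had 4.28 and 4.40 CPM in WT and 2.28 and 2.09 CPM in DDI2-KO. Its groups did not overlap, with a log2 fold change of -0.99 (SE 0.26, adjusted p = 0.0750).

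The feedback and effector genes held most of the calls. Of 35 listed, 33 were tested, 4 rose and none fell, with a median log2 fold change of 0.30. Of all tested genes, 1.33% were called higher. An unadjusted p under 0.05 was found for 14 of the 33, beside 23.5% of all tested genes.

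Ccn1 encodes a secreted matrix protein of growth and wound repair. It had 9.52 and 7.67 CPM in WT and 25.6 and 40.4 CPM in DDI2-KO. The log2 fold change was 1.94 (SE 0.25, adjusted p = 0.0189). It was called with each library left out and in 10 of the 11 alternatives with all 4 libraries, over which the adjusted p ran from 3.91e-09 to 0.0607.

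Gadd45b encodes a stress protein that acts on the p38 and JNK kinases. It had 0.952 and 1.00 CPM in WT and 3.09 and 3.83 CPM in DDI2-KO (log2 fold change 1.82, SE 0.31, adjusted p = 0.0361). Its livers agreed closely within each genotype, but the call was lost without the first WT liver (adjusted p = 0.109) and without the second (0.0712).

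Btg2 encodes an antiproliferative partner of the deadenylase complex. It had 11.8 and 18.7 CPM in WT and 38.2 and 56.7 CPM in DDI2-KO (log2 fold change 1.64, SE 0.28, adjusted p = 0.0404). The groups did not overlap, yet the call was lost without the first WT liver (adjusted p = 0.0804), without the first DDI2-KO liver (0.0609) and without the second (0.0893). It also missed the threshold with offsets for GC content (0.0532), in a range from 3.32e-06 to 0.0532 over the alternatives with all 4 libraries.

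Dusp1 encodes a nuclear phosphatase that switches off p38, JNK and ERK. It had 29.5 and 21.8 CPM in WT and 75.6 and 150 CPM in DDI2-KO (log2 fold change 2.14, SE 0.35, adjusted p = 0.0438). Both DDI2-KO livers were higher, the second more so. The adjusted p was 0.0623 without the second WT liver and 0.106 with the offsets for GC content, in a range from 2.46e-09 to 0.131 over the alternatives with all 4 libraries.

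Ccn2, a matrix protein gene related to Ccn1, pointed the other way without passing. It had 4.22 and 11.1 CPM in WT and 1.93 and 2.52 CPM in DDI2-KO (log2 fold change -1.78, SE 0.47, adjusted p = 0.0920). The WT livers themselves differed, and Ccn2 was called without the first of them (adjusted p = 0.00933, in a range of 0.00933 to 0.410 with a library left out). Gadd45g had a log2 fold change of 1.20 (SE 0.48, adjusted p = 0.189), with 2.16 and 5.22 CPM in DDI2-KO against 2.05 and 1.13 CPM in WT.

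**Figure D4:**
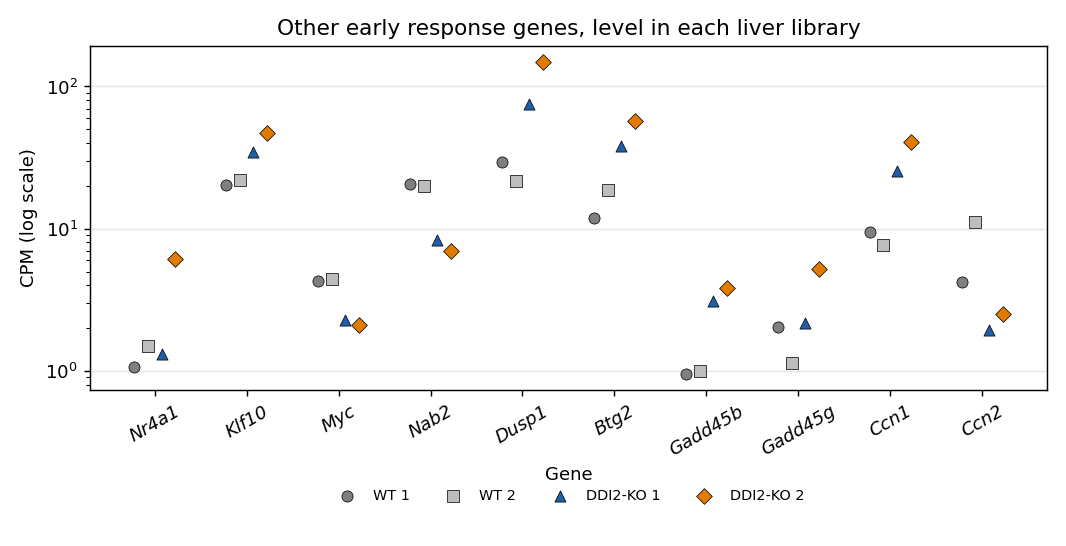
CPM (log axis) of the 10 named genes among the other early transcription factors and the feedback and effector genes in each of the 4 libraries. Both DDI2-KO livers lie above both WT livers for Klf10, Dusp1, Btg2, Gadd45b and Ccn1 and below them for Nab2, while Nr4a1 is high in the second DDI2-KO liver alone.

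The factors and kinases that act on early promoters or on Jun and Fos proteins, among them Srf, the Elk genes, Creb1 and the MAP kinases, gave 0 calls of 20 in edgeR, and DESeq2 and limma-voom also called 0. An unadjusted p under 0.05 was found for 7, beside 23.5% of all tested genes. Creb1, a factor that binds the cyclic AMP response element, had 17.6 and 16.9 CPM in WT and 8.77 and 11.9 CPM in DDI2-KO (log2 fold change -0.74, SE 0.20, adjusted p = 0.0839). It was called lower without the second DDI2-KO liver (adjusted p = 0.0393, in a range of 0.0393 to 0.323 with a library left out). Map2k7, a kinase of the JNK cascade, had a log2 fold change of -0.54 (SE 0.17, adjusted p = 0.108), and 37.4% of its 50-base stretches also occur in the gene model Gm49320.

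Of 16 genes known as targets of AP-1, 13 were tested and 0 passed in edgeR, DESeq2 or limma-voom. An unadjusted p under 0.05 was found for 2 of the 13 targets, beside 23.5% of all tested genes. Their median log2 fold change was -0.04. Both DDI2-KO livers lay above both WT livers for 4 of the 13 targets, beside 28.0% of all tested genes. They lay below both for 1 (Ccnd1), beside 27.7%. Plau, the urokinase gene, had the largest difference at 0.77 (SE 0.26, adjusted p = 0.135), with 2.47 and 2.65 CPM in WT and 3.83 and 4.92 CPM in DDI2-KO. Ccnd1, the cyclin D1 gene, had 101 and 102 CPM in WT against 99.8 and 78.5 CPM in DDI2-KO (log2 fold change -0.19, SE 0.18, adjusted p = 0.571).

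Atf3 is also a gene of the integrated stress response, in which ATF4 drives amino acid and stress genes. Of 10 further genes of that response 1 rose, beside 1.33% of all tested genes called higher. This was Vldlr, a lipoprotein receptor, with 11.6 and 10.9 CPM in WT and 20.7 and 27.7 CPM in DDI2-KO (log2 fold change 1.10, SE 0.20, adjusted p = 0.0404). The call was lost without the first WT liver (adjusted p = 0.124) and without the second (0.119). Atf4 itself had 90.0 and 72.9 CPM in WT and 127 and 98.3 CPM in DDI2-KO (log2 fold change 0.47, SE 0.19, adjusted p = 0.200). Asns, its target for asparagine synthesis, had -0.85 (SE 0.60, adjusted p = 0.436), and Fgf21, a fasting and stress hormone, had 1.31 (SE 0.41, adjusted p = 0.116).

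Chaperones of the heat shock response, most of which rise on heat and tissue handling, gave 0 calls of 7 tested in edgeR and limma-voom. DESeq2 called 1, in a test that called 3.86% of genes higher. An unadjusted p under 0.05 was found for 2, beside 23.5% of all tested genes. Of the 7 log2 fold changes 5 were below 0, with a median of -0.43. The gene called by DESeq2 was Dnajb1, an inducible co-chaperone, which was higher in both DDI2-KO livers (21.3 and 19.7 CPM) than in WT (11.7 and 12.9 CPM), with an adjusted p of 0.0628 in edgeR. Hspb1 had 126 reads in the first WT liver and 11 to 18 in the other 3 libraries (log2 fold change -1.82, SE 1.00, adjusted p = 0.338). Without the second WT liver it was called lower (adjusted p = 0.0196, in a range of 0.0196 to 0.901 with a library left out). Hsp90aa1 had -0.82 (SE 0.38, adjusted p = 0.259). Of their 50-base stretches 51.6% and 58.5% occur in annotated copies of these genes, so their counts are uncertain.

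Clock genes include Per1, which is also an early gene. Of 15 tested, 1 rose (Nfil3) and 2 fell (Per1 and Nr1d2), beside 2.53% of all tested genes called in either direction. The median log2 fold change of the 15 was -0.62. Both DDI2-KO livers lay below both WT livers for 8 of them, beside 27.7% of all tested genes. They lay above both for 2, beside 28.0%. Per1 had 8.95 and 8.22 CPM in WT and 2.90 and 4.22 CPM in DDI2-KO (log2 fold change -1.27, SE 0.25, adjusted p = 0.0438). It kept its call only without the second DDI2-KO liver among the 4 fits with a library left out (adjusted p = 0.0256, in a range of 0.0256 to 0.155). Nr1d2, a clock repressor, fell by 1.08 on the log2 scale (SE 0.17, adjusted p = 0.0289), a call lost without the second WT liver (0.0753). Nfil3, a repressor in antiphase to the D-box activators, rose by 1.18 (SE 0.20, adjusted p = 0.0345), a call lost without the first WT liver (0.142). Per3 had 12.9 and 41.7 CPM in WT and 5.60 and 4.53 CPM in DDI2-KO (log2 fold change -2.43, SE 0.64, adjusted p = 0.125). Ciart had 0.833 and 5.31 CPM in WT and 1.20 and 0.435 CPM in DDI2-KO (log2 fold change -1.88, SE 1.03, adjusted p = 0.353). Per3 and Ciart also differed between the WT livers, and neither passed. The hour at which each liver was taken is not given in the sources used here, and its part in the members' levels cannot be told apart from the genotype.

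Markers of other liver cells were compared because members such as Fos, Egr1 and Atf3 are expressed in many cell types. Summed over 5 erythroid genes, the level was 109 to 210 CPM in WT and 68.3 to 79.3 CPM in DDI2-KO, and Hba-a1, whose reads can be split with its near-identical copy Hba-a2, was called lower (log2 fold change -1.94, adjusted p = 0.0338). Summed over the 8 genes of the lymphocyte list it was 31.2 to 31.5 CPM in WT and 21.9 to 25.6 CPM in DDI2-KO, with 0 calls. Much of that sum was Ptprc, a gene not particular to lymphocytes, at 20.3 and 18.25 CPM in WT and 13.5 and 15.4 CPM in DDI2-KO. The 8 Kupffer cell and macrophage genes summed to 624 to 730 CPM in WT and 743 to 869 CPM in DDI2-KO, with 0 calls. The genes of this list were split. Both DDI2-KO livers lay above both WT livers for 3 of them, beside 28.0% of all tested genes. They lay below both for 2 (Marco and Cd68), beside 27.7%. Of 8 endothelial genes Stab2 was called lower (-1.10, adjusted p = 0.0288), and their sum overlapped between groups. The 8 stellate cell genes summed to 466 to 517 CPM in WT and 442 to 461 CPM in DDI2-KO. Neutrophil and cholangiocyte sums overlapped, and Ly6g was at 0 in all 4 libraries. The 10 hepatocyte genes, with none called, summed to 1.69e+05 to 1.89e+05 CPM in WT and 1.57e+05 to 1.60e+05 CPM in DDI2-KO. The part of these cells in the levels of the 10 early genes was not tested.

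The genes whose pattern over the 4 libraries was closest to that of Fos were sought among the 11967 genes that reached 1 CPM on average, by the distance between log2 CPM values centred on each gene's mean. They were Corin, a cell-surface protease (distance 0.229), Mir703, an annotated microRNA gene (0.456), Pdk4, a mitochondrial kinase that restrains glucose oxidation (0.483), Cyp2d9, a cytochrome P450 (0.588), and Rarres1, a retinoid-responsive gene (0.60). Corin had 18 and 16 reads in WT against 72 and 77 in DDI2-KO, and Pdk4 had 228 and 214 in WT and 918 and 750 in DDI2-KO. Of the 50-base stretches of Cyp2d9, 29.0% are shared with other Cyp2d genes. Closest to Jun were Cdcp1 (0.205), Fam198a (0.222), Rhbg (0.245, with 60.4% of stretches shared with Gm38392), Ube2s (0.258) and Slc45a3 (0.288). Cdcp1 had 232 and 143 reads in WT against 394 and 283 in DDI2-KO, so that, as for Jun, the first liver of each genotype was the higher. With 4 libraries, likeness of pattern is a description and carries no test.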

How the data were processed

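Whole-liver mRNA (Illumina TruSeq Stranded) of 2 WT and 2 DDI2-KO libraries was analysed. The files the authors deposited hold raw read counts per Ensembl gene, with a file for each library, with no scaling. The submitters' processing notes name cutadapt 1.8, STAR 2.5.2b, HTSeq 0.6.1 and GRCm38, and the strand setting and annotation release are not given in the sources used here. The summary lines after the genes were not counted as genes. Reads meeting no gene came to 2.53 to 5.11% and ambiguous reads to 2.50 to 3.66% of the reads on genes. Alignments that were not unique were the largest line, with 22447151 and 16344248 in WT and 12589212 and 10636123 in DDI2-KO. Summary lines together made up 42.3 and 37.1% of all counts in WT and 35.6 and 35.3% in DDI2-KO. Groups and replicate numbers follow the sample labels, and the methods speak of biological replicates. P-values measure only the spread between these libraries. The chi-square of the replicate libraries' counts per degree of freedom was 69.7 in WT and 37.4 in DDI2-KO. The replicates were therefore not the same library sequenced again. This value cannot tell separate animals from separate preparations of the same RNA.

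Symbols and coordinates are from GENCODE M21, which held 48349 of the 48709 identifiers, and promoters are from RefSeq. The counts were fitted in R 4.3.3 by edgeR 4.0.16 (TMM factors, filterByExpr, robust glmQLFit, glmQLFTest) over 13699 genes, with Benjamini-Hochberg adjustment. A call is an adjusted p under 0.05. The standard error is the size of the log2 fold change divided by the square root of F. An exact permutation test of 2 against 2 cannot go below 0.333, so none was used. The study used limma's moderated test, and limma-voom 3.58.1 and DESeq2 1.42.0 were alternatives, with other scalings and filters, no robust estimation, offsets for GC content and length (lowess span 0.3), a replicate block and leaving out each library.

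The members, the other lists and the rule for naming genes were chosen with earlier results of these data known. Named were all members, every called gene of each list (none held over 6), the 2 largest differences in each list that did not pass, and the 5 genes nearest to Fos and to Jun. A gene that this rule names among the AP-1 targets is not reported here. Named outside this rule, after their values were seen, were Ccnd1, Atf4, Hba-a1, Stab2, Prdx2, Dnajb1 and the genes of the promoter comparison.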

Additional observations from a re-analysis of the deposited data

How the results depend on the processing

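Against 346 calls with all libraries (182 higher, 164 lower), DESeq2 gave 932, limma-voom 136, no filter on low counts 1544, no robust estimation 152, offsets for GC content and length 806, and upper-quartile factors 317 with another split (126 higher, 191 lower, or 39.7% higher in place of 52.6%). Leaving out a library gave 153 to 631 calls. Of the members, limma-voom called 1 (Fos), and leaving out a library gave 1 to 5. Their median log2 fold change, with Fos and Jun included, was 0.47 and became 0.26 with limma-voom. It was 0.92 with a mean of at least 1 CPM, which drops Ier3, and ran from 0.34 to 1.16 with a library left out. The 6 calls in the other early lists became 11 with DESeq2, 14 with no filter and 3 to 10 with a library left out. RLE factors and library totals left the called members as Fos and Jun.

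The replicate number as a block gave 1108 calls, 3 members (Fos, Jun and Atf3), a median of 0.27 and 10 other early genes. Together with the GC and length offsets the block gave 420 calls and the members Fos and Jun. Deviations of libraries with the same number correlated at 0.0588, and although WT mice were littermates of DDI2-KO mice, no source ties a replicate number to a litter or day.

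Signs turned with a library left out for Junb (-0.91 to 1.16), Jund (-0.20 to 0.53), Ier2 (-0.64 to 1.08), Jdp2 (-0.99 to 0.072), Asns (-1.51 to 0.35) and Hspb1 (-2.64 to 0.30). The cause was not tested. In such fits the group of 1 library is assumed to vary like the other. Counts were low for Fosb (3 to 5 reads) and Ier3 (10 to 32 reads), and in WT for Fos and Atf3 (31 to 41 reads).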
